A study of Mus musculus with 34 samples.

Results

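The cytochrome P450 genes were examined in maps of 3 chromatin-bound proteins of the mouse liver, the histone deacetylase HDAC3, the homeobox protein PROX1 and the nuclear receptor HNF4α. A gene was a member when it was protein-coding in the GENCODE annotation of mm9 and its symbol was Cyp followed by a digit. Of 98 such genes, 9 were set aside by the rule (*Cyp7a1*, *Cyp7b1*, *Cyp8b1*, *Cyp27a1*, *Cyp4a10*, *Cyp4a14*, *Cyp2e1*, *Cyp1a2* and *Cyp2f2*), which left 89 members in 34 subfamilies among 22380 protein-coding genes. The symbols *Cyp2d37-ps* and *Cyp2j7-ps* mark pseudogenes, but the annotation lists both as protein-coding and they were kept.

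All livers came from male C57B/6 mice of 10 weeks, killed at zeitgeber time 10. HDAC3 and PROX1 were mapped in control livers, with 3 libraries each, and HNF4α in *Hnf4a* floxed control livers, with 2 libraries. Per the study's methods, the floxed controls had been infected with AAV8 TBG *Egfp*, a vector that expresses a fluorescent protein in hepatocytes, and the HNF4α list therefore comes from other mice than the HDAC3 and PROX1 lists. The authors pooled the libraries of each factor before calling peaks, so each factor is a single list without replicates, with no spread between livers and with unknown depth. The lists hold 21247 HDAC3, 27423 PROX1 and 24253 HNF4α peaks. Tissue identity could not be checked from peak positions. Intervals below are 95% intervals that reflect only how many peaks or genes were counted. Peaks that lie close together and genes whose windows overlap are not independent.

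P450 enzymes are haem-containing monooxygenases, most of them anchored in the endoplasmic reticulum, where they receive electrons from P450 oxidoreductase. In hepatocytes the CYP1, CYP2 and CYP3 families oxidise drugs, toxins and steroids, the CYP4 family hydroxylates fatty acids, and other families make or break down sterols, vitamin D and retinoic acid. Many of the mouse genes lie in clusters of close copies, and several are switched on by nuclear receptors that sense foreign compounds. HNF4α is a nuclear receptor of hepatocytes that binds direct repeats of a short half-site, and HDAC3 is the enzyme of the NCoR corepressor complex.

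A peak belonged to a gene when its centre lay between 50 kb upstream of the transcription start site (TSS) and 2 kb past the gene end. Co-bound means that the HDAC3 and PROX1 lists hold the same coordinates. Such a peak was called triply bound when a single HNF4α peak covered at least 50% of its 200 bp. The windows of the members merge into 59 stretches of 5.96 Mb, and a peak shared by several windows was counted once.

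To show what the co-bound chromatin of these genes looks like, the following peaks are given on the plus strand of mm9. Each is the co-bound peak with the highest HNF4α score (the HOMER score in the deposited list) in one of the 6 subfamilies with the most co-bound peaks, and all 6 were triply bound. Capitals mark the best match on either strand to CAAAGTNCA, the core of the HNF4α motif, with at most 1 mismatch. Where several match equally well, the first on the plus strand is marked, or else the first on the minus strand.
Cyp2c44 (chr19:44096163-44096362, plus strand): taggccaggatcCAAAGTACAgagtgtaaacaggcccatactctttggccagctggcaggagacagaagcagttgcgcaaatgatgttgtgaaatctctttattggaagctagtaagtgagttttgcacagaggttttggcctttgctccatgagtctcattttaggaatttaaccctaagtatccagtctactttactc
Cyp2d37-ps (chr15:82537831-82538030, plus strand): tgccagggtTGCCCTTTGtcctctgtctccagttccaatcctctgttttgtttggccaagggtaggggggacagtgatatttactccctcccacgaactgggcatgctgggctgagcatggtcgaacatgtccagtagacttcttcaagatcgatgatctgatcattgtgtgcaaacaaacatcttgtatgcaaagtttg
Cyp3a11 (chr5:146692867-146693066, plus strand): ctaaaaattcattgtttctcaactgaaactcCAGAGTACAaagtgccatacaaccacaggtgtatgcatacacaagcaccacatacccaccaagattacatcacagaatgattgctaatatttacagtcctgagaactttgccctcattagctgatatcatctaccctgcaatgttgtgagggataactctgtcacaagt
Cyp4f40 (chr17:32774186-32774385, plus strand): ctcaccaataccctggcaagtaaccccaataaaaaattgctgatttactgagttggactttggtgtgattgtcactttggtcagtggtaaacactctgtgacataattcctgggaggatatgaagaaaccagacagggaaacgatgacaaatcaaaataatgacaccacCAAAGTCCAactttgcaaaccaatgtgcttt
Cyp4a32 (chr4:115269036-115269235, plus strand): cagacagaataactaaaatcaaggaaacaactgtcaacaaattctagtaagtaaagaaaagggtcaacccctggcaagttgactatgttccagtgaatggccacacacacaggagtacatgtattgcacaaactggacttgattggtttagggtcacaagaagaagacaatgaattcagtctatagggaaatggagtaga
Cyp2b13 (chr7:26867686-26867885, plus strand): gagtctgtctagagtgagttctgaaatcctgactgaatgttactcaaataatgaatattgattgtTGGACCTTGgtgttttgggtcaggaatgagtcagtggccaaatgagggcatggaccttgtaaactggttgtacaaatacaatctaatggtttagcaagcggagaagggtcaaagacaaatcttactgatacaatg
The *Cyp2c44* peak lies in an intron, 7.47 kb downstream of the TSS, and carries the highest HNF4α score in any P450 window, 131.5. The *Cyp2d37-ps* peak (score 122.5) is intergenic, 17.0 kb upstream of that gene. The *Cyp3a11* peak (129.1) is 1.43 kb upstream of its TSS, between genes. The *Cyp4f40* peak (88.6) is intergenic and 22.1 kb upstream, and it holds a second match without mismatch on the other strand. The *Cyp2b13* peak (92.8) is intronic, 21.3 kb downstream of the TSS. The *Cyp4a32* peak, 4.44 kb upstream, has the lowest score of the 6, 41.9, and has no such match and so no capitals. The matches of *Cyp2c44* and *Cyp4f40* have no mismatch, and those of the *Cyp2d37-ps*, *Cyp3a11* and *Cyp2b13* peaks have 1. The *Cyp3a11* peak holds 3 matches with 1 mismatch and the *Cyp2b13* peak 2.

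HDAC3 and PROX1 were found together in the windows of most P450 genes. At least 1 co-bound peak lay in the window of 58 of the 89 members (65.2%, Wilson interval 54.8 to 74.3), beside 38.4% of all protein-coding genes. The count was 41 in windows reaching 10 kb upstream, which hold fewer peaks by construction. The share of all genes was not computed for such windows. A triply bound peak lay in the windows of 51 members (57.3%), beside 31.1% of all genes, and an HNF4α peak in those of 64 (71.9%), beside 49.7%. PROX1-only peaks were found for 33 members (37.1%, beside 25.2% of all genes). HDAC3-only peaks were found for 9 members (10.1%, beside 7.40%). No peak of any list fell in the windows of 20 members (22.5%), beside 44.7% of all genes. The median member had 1 co-bound peak in a window of median length 75 kb, and the median gene had 0 in 67.4 kb. These counts were not tested, because the members were chosen with earlier results of the data known.

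Promoters were often co-bound. The TSS of a gene was taken as its outermost annotated start. A co-bound peak was centred within 1 kb of the gene's TSS in 24 members (27%, interval 18.8 to 37.0), beside 5.05% of all genes. These promoters were those of *Cyp2a12*, *Cyp2b10*, *Cyp2c37*, *Cyp2c39*, *Cyp2c50*, *Cyp2c54*, *Cyp2c70*, *Cyp2d10*, *Cyp2d22*, *Cyp2d26*, *Cyp2d40*, *Cyp2j5*, *Cyp2r1*, *Cyp3a11*, *Cyp3a13*, *Cyp3a25*, *Cyp3a59*, *Cyp4a31*, *Cyp4a32*, *Cyp4f14*, *Cyp4f15*, *Cyp4v3*, *Cyp17a1* and *Cyp39a1*. They held 28 peaks in all, 19 with HNF4α and 9 without. Among the 9, the peaks of *Cyp2d26* and *Cyp17a1* were overlapped by an HNF4α peak over less than the required length. The *Cyp2d26* promoter peak, centred at -180 bp, is a case where the overlap rule decides the class: the HNF4α peak beside it had a score of 115.4 but covered 32% of it. A triply bound *Cyp2c29* peak lies 46045 bp from the TSS but within 1 kb of another annotated transcript start. It was not counted among these promoters.

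In all, the windows held 158 co-bound peaks, 47 PROX1-only peaks, 6 HDAC3-only peaks and 193 HNF4α peaks. By location, 36 co-bound peaks (22.8%) had their centre at most 1 kb from an annotated transcript start of a protein-coding gene, 39 (24.7%) in introns, 2 in exons and 81 (51.3%) between genes. In the whole list of 20039 co-bound peaks, 9.75% were at transcript starts, 45.0% in introns and 42.7% between genes. That list includes peaks far from any gene. Of the 16075 co-bound peaks that lie in windows of other genes and in none of the members, 11.9% were at transcript starts, 55.8% in introns and 29% between genes. The co-bound peaks lay upstream of the nearest member's TSS in 120 cases and downstream in 38, and the window itself reaches farther upstream than downstream. Their median distance from it was 11.0 kb, with 50 peaks at 1 to 10 kb and 80 beyond 10 kb. For 37 of the 158, the gene with the nearest TSS was not a member.

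**Figure D1:**
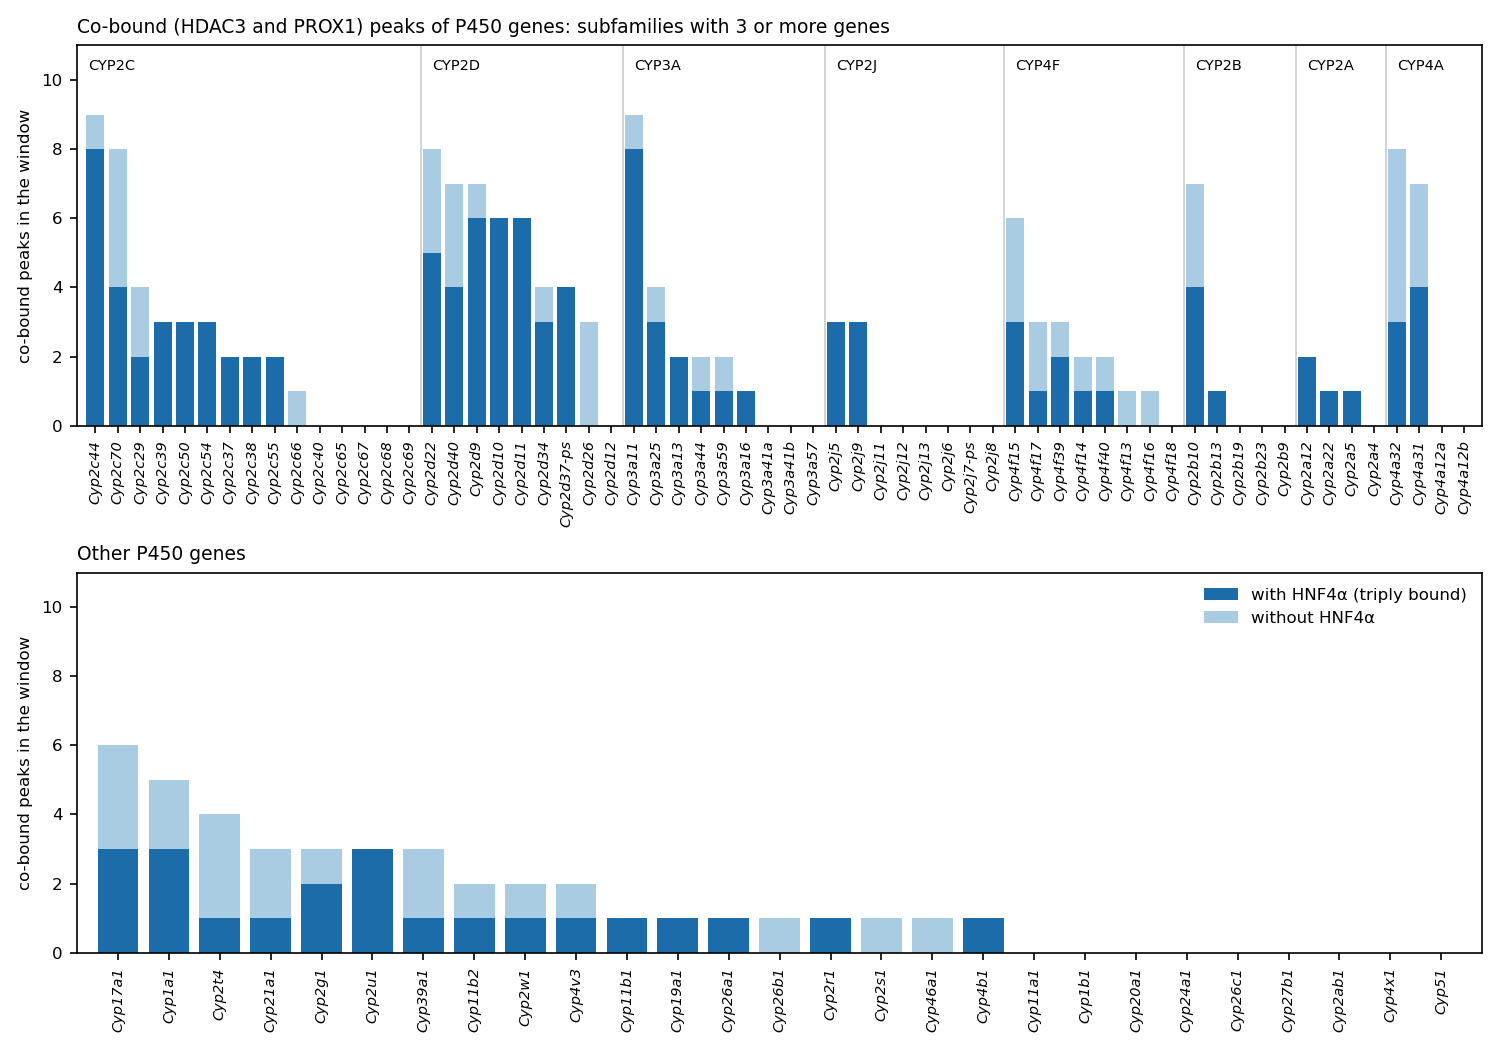
Number of co-bound peaks in the window of each of the 89 P450 genes (vertical axis), with HNF4α in dark blue and without in light blue, by subfamily in the upper panel and for the remaining genes below. A peak in several windows is drawn for each of those genes. *Cyp2c44* and *Cyp3a11* reach 9 peaks, while 31 genes have 0.

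The number of co-bound peaks per gene was uneven, among the members as over all protein-coding genes. The quartiles were 0 and 3 for the members, with a highest count of 9. Over all genes they were 0 and 2, with a highest count of 102. The windows of 31 members held none, those of 39 held 1 to 3, those of 10 held 4 to 6, and those of 9 held 7 or more. The 9 were *Cyp2c44* and *Cyp3a11* with 9 peaks each, *Cyp2c70*, *Cyp2d22* and *Cyp4a32* with 8, and *Cyp2b10*, *Cyp2d9*, *Cyp2d40* and *Cyp4a31* with 7. *Cyp2d10*, *Cyp2d11*, *Cyp4f15* and *Cyp17a1* followed with 6. Within the CYP2D cluster these counts share peaks, since neighbouring windows overlap. Over all members, 28 co-bound peaks lay in more than 1 window.

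Among the genes for drugs and foreign compounds, a list of 8 from general knowledge, 7 had a co-bound peak (38.4% of all genes) and a triply bound one (31.1% of all genes), and 4 had a co-bound peak within 1 kb of the TSS (5.05% of all genes). *Cyp3a11*, the main CYP3A enzyme induced through the pregnane X receptor in mouse liver, lies at chr5:146666002-146691540 on the minus strand and held 9 co-bound peaks, of which 8 also had HNF4α. One peak sat on its TSS, centred at 23 bp with an HNF4α score of 66.0, and the peak shown above followed at -1427 bp. A group of 5 triply bound peaks, with scores from 33.0 to 83.4, extended from -20718 to -33148 bp.

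*Cyp2b10*, which the constitutive androstane receptor induces, lies at chr7:26682639-26711643 on the plus strand. It had 7 co-bound peaks, 4 of them triply bound, and their centres formed a series at -7899, -4221, -2252 and -105 bp with HNF4α scores of 34.9, 67.4, 55.6 and 37.7. The other 3 co-bound peaks, at -13159, -9352 and 4750 bp, did not touch an HNF4α peak. An HDAC3-only peak at -9613 bp lay next to the peak at -9352 bp. For these 2 peaks and those at -7899 and -13159 bp, the gene with the nearest TSS was *Gm6434*.

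*Cyp2d22* (chr15:82200958-82210690, minus strand), a CYP2D enzyme, had 8 co-bound peaks, 5 with HNF4α, including one at 651 bp with a score of 104.1. *Cyp1a1*, the aromatic hydrocarbon hydroxylase that the aryl hydrocarbon receptor induces, had 5 co-bound peaks (3 with HNF4α) and 4 PROX1-only peaks. None of its co-bound peaks was within 1 kb of its TSS, and the nearest was at -11405 bp. The gene with the nearest TSS was the neighbouring, set-aside *Cyp1a2* for the co-bound peaks at -11405, -13863, -29176 and -32778 bp. It was *Csk* for the one at -49375 bp. *Cyp2c29* had 4 co-bound peaks, *Cyp3a13* had 2 and *Cyp2a5*, the coumarin hydroxylase, had 1. For the *Cyp2a5* peak, the gene with the nearest TSS was *Cyp2g1*. The triply bound *Cyp2c29* peak at 46045 bp lay at an annotated transcript start, but not within 1 kb of the TSS as taken here. The window of *Cyp1b1*, which oxidises aromatic hydrocarbons mainly outside the liver, held no peak of any list.

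**Figure D2:**
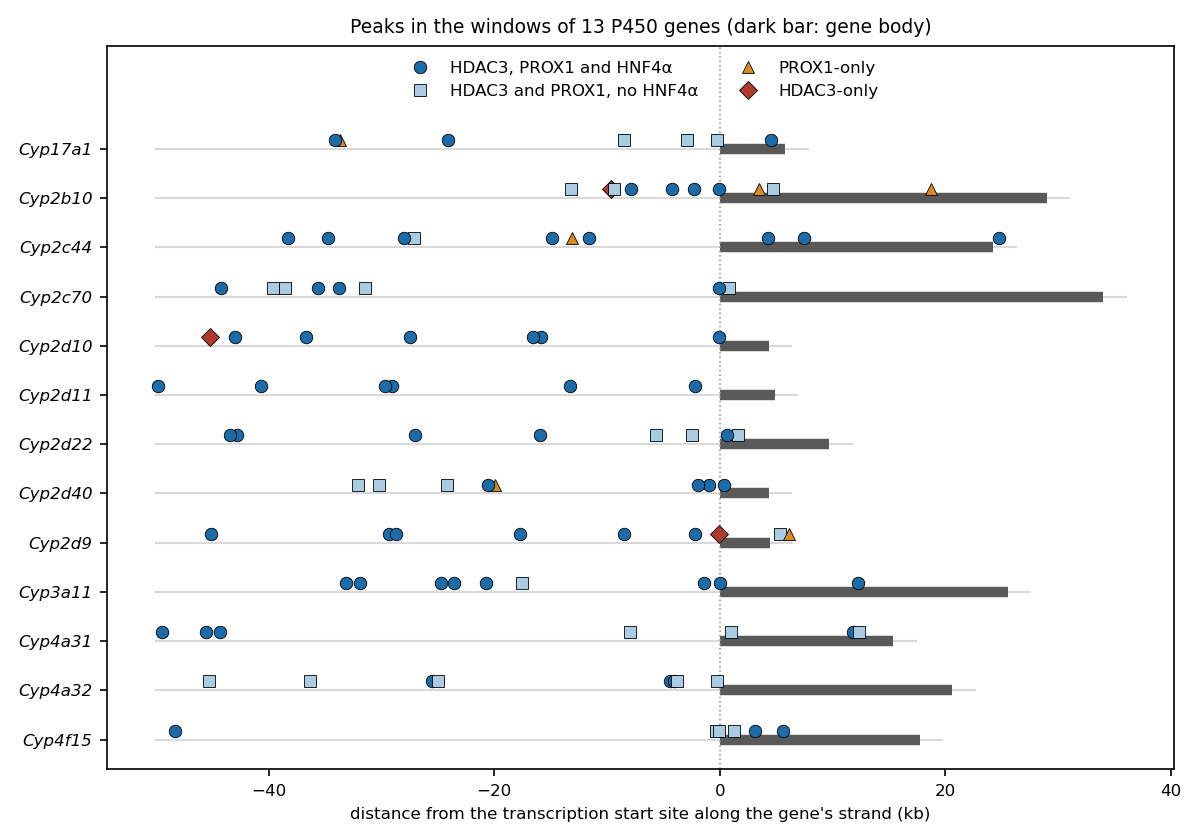
Positions of the peaks in the windows of the 13 P450 genes with 6 or more co-bound peaks, as the distance in kb from the transcription start site along the gene's strand (horizontal axis), with the gene body as a dark bar. Circles are triply bound peaks, squares co-bound peaks without HNF4α, triangles PROX1-only and diamonds HDAC3-only peaks. The 9 co-bound peaks of *Cyp3a11* and of *Cyp2c44* spread over both sides of the start site, and *Cyp2d9* has an HDAC3-only peak on it.

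Of 7 genes for fatty acids and eicosanoids, 6 had a co-bound peak (beside 38.4% of all genes) and a triply bound one (31.1%), and 3 had a co-bound peak within 1 kb of the TSS (5.05%). *Cyp2c44*, an epoxygenase of arachidonic acid, lies at chr19:44079512-44103737 on the minus strand, and 8 of its 9 co-bound peaks had HNF4α. Their HNF4α scores ran from 25.4 to 131.5. None of the 9 was within 1 kb of the TSS, and 1 coincided with the promoter of the neighbouring *Erlin1*, at -38270 bp. That peak and those at -27136, -28020 and -34718 bp had *Erlin1* as the gene with the nearest TSS. For the peak at 24776 bp it was *Cpn1*.

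*Cyp2j5*, another epoxygenase, had 3 co-bound peaks, all with HNF4α, at -67, -1081 and 28508 bp. *Cyp2u1*, which hydroxylates long-chain fatty acids, also had 3 with HNF4α, at -4746, -7620 and -9317 bp, with scores of 68.8, 92.8 and 113.1. *Cyp4f14*, the leukotriene B4 hydroxylase, and *Cyp4v3*, a fatty acid hydroxylase, had 2 each, and *Cyp4b1* had 1. *Cyp4a12a*, the hydroxylase of arachidonic acid, had no co-bound peak but 3 PROX1-only peaks, and only 46.6% of the 32-base words of its window occur once in the genome.

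Of 13 genes for sterols, steroids, vitamins and retinoids, 9 had a co-bound peak (beside 38.4% of all genes), 7 a triply bound one (31.1%), and 3 a co-bound peak within 1 kb of the TSS (5.05%). *Cyp17a1*, a steroid hydroxylase best known from the gonads and adrenal gland, had the most, 6, of which 3 had HNF4α. The peaks at -212, -2870 and -8504 bp were without HNF4α by the overlap rule, and the one at 4562 bp, in an intron, had a score of 93.3. The gene with the nearest TSS was *2010012O05Rik* for the peaks at -8504 and -24123 bp. It was *As3mt* for the peak at -34081 bp. *Cyp39a1*, an oxysterol hydroxylase of bile acid synthesis, and *Cyp21a1*, a steroid hydroxylase of the adrenal cortex, had 3 co-bound peaks each, 1 of them with HNF4α. The *Cyp39a1* peak at 22 bp, on the TSS, lacked HNF4α.

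*Cyp11b2*, which makes aldosterone and was not on the list, had 2 co-bound peaks, 1 of them shared with *Cyp11b1*. *Cyp2r1*, the vitamin D hydroxylase of the liver, *Cyp19a1* (aromatase), *Cyp26a1* and *Cyp26b1* (breakdown of retinoic acid), *Cyp46a1* (a cholesterol hydroxylase of the brain) and *Cyp11b1* had 1 each. For the peaks of *Cyp19a1*, *Cyp46a1* and *Cyp11b1*, the genes with the nearest TSS were *Gldn*, *Hhipl1* and *2010109I03Rik*. *Cyp51*, the lanosterol demethylase of cholesterol synthesis, had 2 PROX1-only peaks and no co-bound one, and *Cyp24a1*, which inactivates vitamin D, had 1 HNF4α peak alone. *Cyp11a1*, the side-chain cleavage enzyme of steroid synthesis, and *Cyp27b1*, which activates vitamin D in the kidney, had no peak of any list.

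HDAC3-only peaks were few. The 6 peaks lay in the windows of *Cyp2d9* and *Cyp2d10* (1 shared peak), *Cyp4f39* and *Cyp4f17* (1 shared), *Cyp2g1* and *Cyp2a5* (1 shared), *Cyp26a1*, *Cyp2c29* and *Cyp2b10*. The *Cyp2d9* peak was the single one at a TSS, centred at -40 bp, and it was also the only one of the 6 that an HNF4α peak covered over at least 50%, with a score of 58.4. *Cyp2d9* encodes a steroid hydroxylase. The *Cyp26a1* peak lay at -2020 bp and touched no HNF4α peak.

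The mix of peak classes was then compared between the P450 windows and the rest of the lists with Pearson's chi-square test, two-sided. The members were chosen with earlier results of the data known, and the p-values do not allow for this. HNF4α was at 104 of the 158 co-bound peaks (65.8%, interval 58.1 to 72.8) and at 12180 of 19881 others (61.3%), a difference of 4.56 percentage points (-3.16 to 11.5, chi-square p = 0.24). With HNF4α required to cover 75% of the peak, the shares were 43.7% (69 of 158) and 32.4%, and the difference of 11.3 points (3.79 to 19.1) passed the threshold (chi-square p = 0.0025). HNF4α peaks are 85 to 168 bp wide, so that the stricter rule also asks for a wide and well-centred HNF4α peak. Of the 54 co-bound peaks without HNF4α, 10 touched an HNF4α peak, which covered 14.0 to 49.5% of them.

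For the other classes no difference passed the threshold of 0.05. Co-bound peaks were 77.1% of the PROX1 peaks in the P450 windows (158 of 205) and 73.0% elsewhere, a difference of 4.03 points (-2.21 to 9.28, chi-square p = 0.2). HDAC3-only peaks were 3.66% of the HDAC3 peaks (6 of 164) and 5.70% elsewhere, a difference of -2.04 points (-4.04 to 2.06, chi-square p = 0.26). Of the HNF4α peaks, 28.5% (55 of 193) had neither HDAC3 nor PROX1 over at least 50% of their length, against 33.7% elsewhere, a difference of -5.25 points (-11.2 to 1.52, chi-square p = 0.12). With the 9 set-aside P450 genes included, this last difference was -7.46 points and passed the threshold (chi-square p = 0.018). All 9 of these genes had a triply bound peak in the window. The median HNF4α score was 43.8 in the P450 windows (quartiles 32 and 69.3) and 41.9 in the whole list (30.2 and 60.8). At triply bound peaks the medians were 59.6 and 52.3.

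Subfamilies differed in how densely they were co-bound. The 8 subfamilies with 3 or more members were compared by the number of co-bound peaks per 100 kb of merged window, each peak counted once. CYP2D, a cluster of 9 members on chromosome 15, had the highest density, 27 peaks or 7.86 per 100 kb (exact Poisson interval 5.18 to 11.4). CYP4A followed with 11 peaks or 4 (2 to 7.15), CYP4F with 13 or 3.26 (1.74 to 5.57) and CYP3A with 20 or 2.79 (1.70 to 4.30). CYP2C, the largest with 15 members, had 32 peaks or 2.65 (1.81 to 3.74). CYP2B had 8 or 2.17 (0.938 to 4.28), CYP2A 3 or 1.31 (0.270 to 3.82) and CYP2J 5 or 0.785 (0.255 to 1.83). The merged windows were 343 kb long for CYP2D, 718 kb for CYP3A, also with 9 members, and 1209 kb for CYP2C. A ratio of densities is therefore not a ratio of counts per member.

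**Figure D3:**
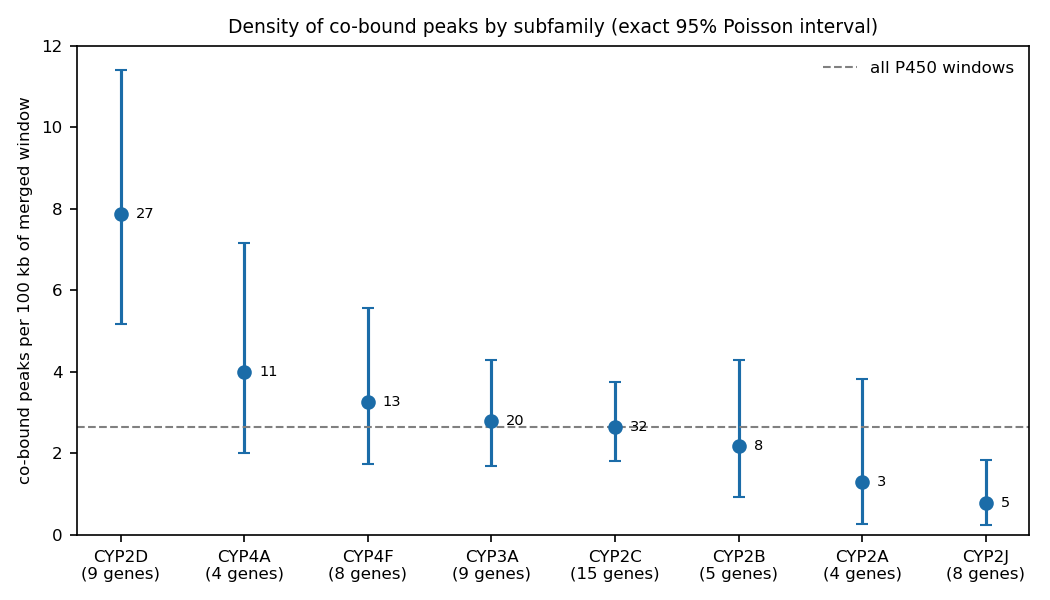
Co-bound peaks per 100 kb of merged window (vertical axis) for the 8 subfamilies with 3 or more genes. Points are densities, bars exact 95% Poisson intervals, and the number beside each point is the count of peaks. The dashed line is the density over all P450 windows, 2.65, and the CYP2D interval of 5.18 to 11.4 lies above it.

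In exact conditional tests of the 28 pairs, 10 had a Benjamini-Hochberg adjusted p under the threshold of 0.05. CYP2D was denser than CYP4F (2.41-fold, exact test, adjusted p = 0.029), CYP3A (2.82-fold, 0.0033), CYP2C (2.97-fold, 7.8e-04), CYP2B (3.62-fold, 0.0033), CYP2A (6.01-fold, 0.0033) and CYP2J (10.0-fold, 3.6e-07). CYP2J was in turn below CYP4A (5.09-fold, exact test, adjusted p = 0.0077), CYP4F (4.15-fold, 0.02), CYP3A (3.55-fold, 0.025) and CYP2C (3.37-fold, 0.02). In windows reaching 10 kb upstream, 10 pairs again passed, but CYP2C against CYP2J did not (3.24-fold, exact test, adjusted p = 0.16), and CYP2B against CYP2J did (5.18-fold, 0.036). CYP2D and CYP4A were not told apart (1.97-fold, exact test, adjusted p = 0.18), nor were CYP4A, CYP4F, CYP3A, CYP2C, CYP2B and CYP2A among themselves. With co-bound peaks closer than 1 kb merged into 1 region, 5 pairs passed, CYP2D above CYP2C and CYP2J, and CYP4F, CYP3A and CYP2C above CYP2J. Peaks within a cluster are not independent, so that all these p-values are too small.

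The share of co-bound peaks with HNF4α was 80.0% in CYP3A (16 of 20, Wilson interval 58.4 to 91.9), 75% in CYP2C (24 of 32, 57.9 to 86.7), 70.4% in CYP2D (19 of 27, 51.5 to 84.1), 54.5% in CYP4A (6 of 11, 28.0 to 78.7) and 46.2% in CYP4F (6 of 13, 23.2 to 70.9). In Fisher's exact test, two-sided, 0 of the 10 pairs passed after adjustment and 0 had an unadjusted p under 0.05. The widest gap, CYP3A above CYP4F by 33.8 points (1.03 to 59.7), had an adjusted p of 0.43 in this exact test. The 6 CYP4A peaks with HNF4α had scores from 20.7 to 41.9. With the HNF4α list limited to scores above its median of 41.9, CYP4A had 0 of 11, which allows a share of up to 27.3%, against 66.7% in CYP2D (18 of 27, exact test, adjusted p = 0.0017), 46.9% in CYP2C (15 of 32, 0.039) and 45.0% in CYP3A (9 of 20, 0.039). This count turns on 1 peak, the *Cyp4a32* peak shown above, whose score equals the median. With scores equal to the median kept, a setting added after seeing the data, CYP4A had 1 of 11 (9.09%), and the exact test passed for CYP2D (adjusted p = 0.03) but not for CYP2C (0.14) or CYP3A (0.14). The set-aside *Cyp4a10* and *Cyp4a14* also belong to CYP4A, and all 4 co-bound peaks in the window of each had HNF4α, with scores of up to 43.3. These windows overlap each other and that of *Cyp4a31*, so that they share peaks. The *Cyp4a31* peaks at -49483, -45505 and -44332 bp lie in both and are already among the 11. All 5 co-bound peaks of CYP2J and all 3 of CYP2A had HNF4α.

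**Figure D4:**
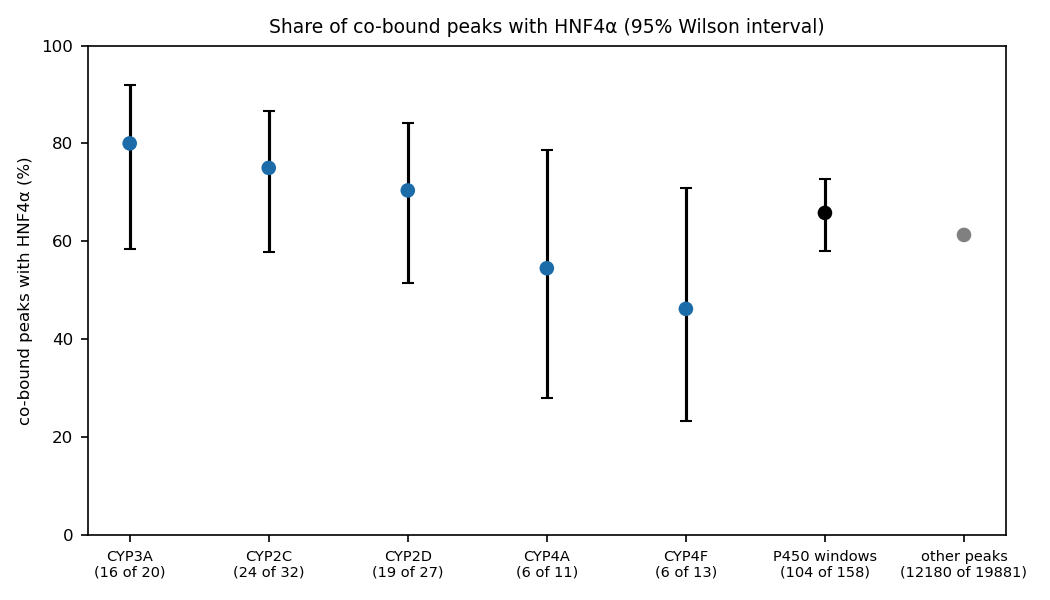
Percentage of co-bound peaks with HNF4α (vertical axis) in the 5 subfamilies with at least 10 co-bound peaks, in all P450 windows and in the rest of the list. Points are shares and bars 95% Wilson intervals. The subfamily shares run from 46.2% to 80.0% with intervals that overlap.

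Within subfamilies, members had very different counts. In CYP2C, *Cyp2c44*, which lies apart from the rest of the cluster, had 9 co-bound peaks and *Cyp2c70*, which converts chenodeoxycholic acid towards muricholic acid in mice, had 8, while *Cyp2c40*, *Cyp2c65*, *Cyp2c67*, *Cyp2c68* and *Cyp2c69* had 0. In CYP3A, *Cyp3a11* had 9, *Cyp3a25* had 4, and *Cyp3a41a*, *Cyp3a41b* and *Cyp3a57* had 0. In CYP2B, *Cyp2b10* had 7 and *Cyp2b13* had 1, and *Cyp2b9*, *Cyp2b19* and *Cyp2b23* had no peak of any list. In CYP4A, *Cyp4a31* and *Cyp4a32* had 7 and 8, with 4 shared, and *Cyp4a12a* and *Cyp4a12b* had 0. In CYP2J, *Cyp2j5* and *Cyp2j9* had 3 each, with 1 shared, and the other 6 genes had no peak of any list. In CYP2D, 8 of 9 members had 3 or more, and *Cyp2d12* had 0. The upper quartile over all protein-coding genes was 2.

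Close copies are also where short reads may have no unique place, and the files do not say how such reads were treated. The share of 32-base words of a window that occur once in the mm9 genome was therefore computed as a description. It was 75.6% for the median member, with a range of 30.4% (*Cyp3a41a*) to 97.3% (*Cyp26a1*), and 92.5% for the median of the 10 partner genes described below. Among the 15 members under 50%, 4 had a co-bound peak (26.7%), at a density of 0.440 per 100 kb. Among the 26 members at 50 to 75%, 17 had one (65.4%, 2.53 per 100 kb), and among the 48 at 75% or more, 37 (77.1%, 3.64 per 100 kb).

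Members without a co-bound peak were found at all levels of this measure, 11 under 50%, 9 at 50 to 75% and 11 at 75% or more. *Cyp2c40*, *Cyp2c67*, *Cyp2c68* and *Cyp2c69* had 36.5, 37.6, 37.0 and 47.4% of unique words. *Cyp3a41a* and *Cyp3a41b* had 30.4 and 36.3%, *Cyp2d12* had 37.6% and *Cyp2b9* had 42.6%. An absence of co-bound peaks in these windows cannot be told apart from reads that could not be placed. Other peaks were called in some of them. *Cyp2c67* and *Cyp2d12* had 1 PROX1-only and 2 HNF4α peaks each, *Cyp2c68* had 1 HNF4α peak and *Cyp3a41a* had 1 PROX1-only peak. *Cyp2c40*, *Cyp2c69*, *Cyp3a41b* and *Cyp2b9* had no peak of any list. At the other end, *Cyp1b1*, *Cyp26c1*, *Cyp24a1*, *Cyp27b1* and *Cyp11a1* had no co-bound peak in windows with 91.1 to 97% of unique words, and *Cyp2j6* had none at 87.9%. With unique words in place of all bases as the length of a window, 10 pairs of subfamilies still passed, and CYP2D stood 2.20-fold above CYP3A (exact test, adjusted p = 0.03) and 10.2-fold above CYP2J (2.6e-07).

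**Figure D5:**
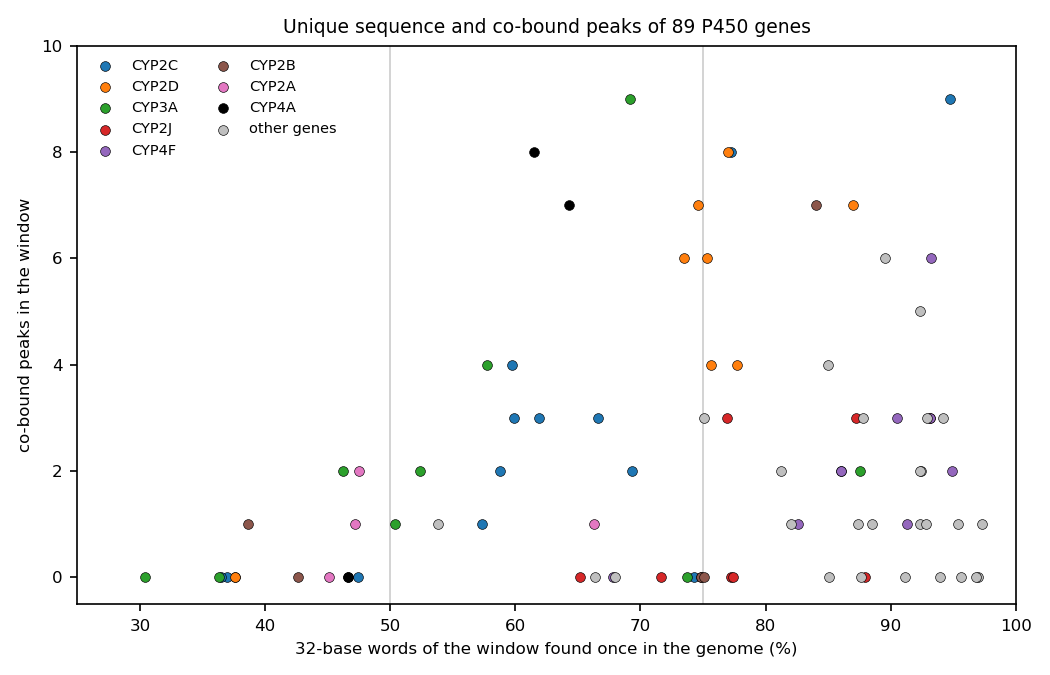
Co-bound peaks in the window (vertical axis) against the percentage of 32-base words of the window found once in the genome (horizontal axis), 1 point for each of the 89 P450 genes, some of them hidden under others. Grey lines mark 50% and 75%. Of the 15 genes left of the first line, 4 have a co-bound peak.

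Sequence motifs were counted in the 200 bp of each co-bound peak, on both strands and without mismatch. The HNF4α core CAAAGTNCA was in 22 of the 158 co-bound peaks of P450 windows (13.9%, interval 9.38 to 20.2), and in 7.15% (6.80 to 7.52) of the 19881 other co-bound peaks. In the central 100 bp of the peaks, the shares were 6.96% (3.93 to 12) and 4.58%, the second within the interval of the first. Among triply bound peaks it was in 21 of 104 (20.2%, interval 13.6 to 28.9) and in 10.2% of the others, and among the 54 P450 peaks without HNF4α in 1. CYP2C accounted for 10 of the 22, in 32 peaks (31.2%, interval 18.0 to 48.6), and the remaining P450 windows had 12 in 126 (9.52%, 5.53 to 15.9). With 1 mismatch allowed, a setting chosen after the values were seen, the shares were 51.3% (43.5 to 58.9) and 44.1% in the other co-bound peaks.

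The C/EBP motif TTGCNNAA was at 41 of the 158 peaks (25.9%), beside 26.1% of the others. The dioxin response element TNGCGTG, to which the aryl hydrocarbon receptor binds, was at 4 (2.53%, beside 1.87%). Direct repeats of the half-site AGNTCA with 1 base between were at 2 (1.27%, beside 1.08%) and with 4 bases between, the spacing bound by the pregnane X and constitutive androstane receptors, at 2 (1.27%, beside 0.307%). With 2 bases between there were 0 of 158, which allows a share of up to 1.90%, beside 0.423%. The core of the HNF4α motif can overlap the direct repeat with 1 base between, but with these letters only where its N is T. A match is a description of letters and not of a bound site.

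In CYP2C the core was found in several promoters. Of the 5 members with a co-bound peak within 1 kb of the TSS, *Cyp2c37*, *Cyp2c50*, *Cyp2c54* and *Cyp2c70* had a core in the triply bound peak there, and the *Cyp2c39* peak had a match with 1 mismatch. The cores, in capitals, are shown with 15 bases to either side, 5′ to 3′ on the strand of the gene, a set chosen after its values were seen.
Cyp2c37 (chr19:40066836-40066874, plus strand): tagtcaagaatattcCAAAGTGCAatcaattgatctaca
Cyp2c50 (chr19:40164093-40164131, plus strand): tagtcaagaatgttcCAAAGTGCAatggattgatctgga
Cyp2c54 (chr19:40148357-40148395, minus strand): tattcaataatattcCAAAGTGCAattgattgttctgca
Cyp2c70 (chr19:40261817-40261855, minus strand): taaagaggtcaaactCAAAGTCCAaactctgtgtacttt
The core was centred 54 bp upstream of the *Cyp2c37* TSS, 66 bp upstream of that of *Cyp2c50*, 75 bp upstream of that of *Cyp2c54* and 13 bp upstream of that of *Cyp2c70*. The HNF4α scores of these peaks were 75.9, 45.7, 91.4 and 91.9. Over the 39 bases, *Cyp2c37* was identical to *Cyp2c50* at 87.2% and to *Cyp2c54* at 84.6% of positions. *Cyp2c70* was identical to them at 38.5 to 43.6%, the 9 bases of the core included. The *Cyp3a11* promoter also held a core in the gene's direction, centred at 5 bp.

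Related stretches were also found at other peaks. *Cyp2c37* and *Cyp2c50* each had a second triply bound peak upstream, with cores at -2789 and -1143 bp and 89.7% identity over the 39 bases. CYP2D had 4 cores, all in triply bound peaks. The 3 that resemble each other, near *Cyp2d9*, *Cyp2d34* and *Cyp2d40*, are shown in the same way.
Cyp2d9 (chr15:82274251-82274289, plus strand): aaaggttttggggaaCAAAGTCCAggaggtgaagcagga
Cyp2d34 (chr15:82472036-82472074, minus strand): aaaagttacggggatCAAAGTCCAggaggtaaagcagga
Cyp2d40 (chr15:82594163-82594201, minus strand): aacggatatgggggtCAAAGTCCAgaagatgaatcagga
They lie at -8537, -20718 and 431 bp from the TSS of the nearest member, the last of them in a peak within 1 kb of the TSS, with HNF4α scores of 65.0, 80.6 and 99.9. The *Cyp2d9* and *Cyp2d34* stretches were 87.2% identical, and the *Cyp2d40* stretch was 79.5 and 76.9% identical to them. The remaining core, at -17673 bp from the *Cyp2d9* TSS, was 38.5 to 46.2% identical to the 3 shown. Peaks at such copies are not independent of each other.

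The genes that P450 enzymes and their induction depend on, a list of 10 from general knowledge, were co-bound in 9 cases, beside 38.4% of all genes. *Por*, the P450 oxidoreductase, had 16 co-bound peaks, 8 with HNF4α, and *Ppara*, the nuclear receptor that induces CYP4A genes, had 16, of which 10 had HNF4α. *Alas1*, the first enzyme of haem synthesis, had 8. *Cyb5* and *Cyb5r3*, cytochrome b5 and its reductase, had 5 and 3. Of the sensors of foreign compounds, *Nr1i2* (the pregnane X receptor) had 8, *Nr1i3* (the constitutive androstane receptor) 5, all with HNF4α and 2 of them within 1 kb of the TSS, and *Ahr* (the aryl hydrocarbon receptor) 5. Their partner *Rxra* had 7, and *Arnt*, the partner of the aryl hydrocarbon receptor, had 0 beside 3 HNF4α peaks. The 10 windows held 73 co-bound peaks, or 7.64 per 100 kb, and those of the members 2.65 per 100 kb. The windows of *Por*, *Ppara* and *Rxra* are 117, 120 and 139 kb long, and the 10 windows hold more unique words than those of the members, which were at 3.64 per 100 kb where 75% or more of the words were unique. The part of unique words in this difference was not tested.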

How the data were processed

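ChIP-seq reads of HDAC3 and PROX1 (control livers) and of HNF4α (floxed control livers) were aligned by the authors to mm9 with Bowtie 0.12.7, freed of duplicates, pooled per factor and turned into peaks with HOMER, with IgG as input and limits on enrichment and on normalized reads. The deposited lists give peak positions, and the HNF4α list also a HOMER score per peak, whose scale is not given in the sources used here. Co-bound coordinates are identical in both lists, so that this class is the authors' own. No list has a read count, and the depth is unknown.

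Members, role lists, partner genes and motifs were chosen with earlier results of these data known. Genes were named when they had an HDAC3-only peak, a co-bound peak within 1 kb of the TSS, one of the 10 highest co-bound counts (ties included) or a place in the role lists. Genes named in the contrasts within subfamilies were chosen after their values were seen. Windows, classes and distances were computed from peak centres on the GENCODE vM1 annotation of NCBIM37, which is mm9, and sequences were read from that genome. Shares have Wilson intervals, differences of shares Newcombe intervals and densities exact Poisson intervals, all at 95%. Shares were tested by Pearson's chi-square or Fisher's exact test, and densities with an exact conditional binomial test, with Benjamini-Hochberg adjustment over the pairs. A share of 0 was given the limit that 3 counts allow. Code was tested on simulated data. Alternatives changed the window, the overlap rule, the HNF4α list, the merging of peaks, the genes included, the length measure and the motif window. Tools were pysam 0.24.0, numba 0.67.0, scipy 1.17.1, numpy 2.4.6, matplotlib 3.10.9 and pandas 2.3.3 under Python 3.11.15. RNA-seq, H3K27Ac and knockout samples were not analysed here.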

Additional observations from a re-analysis of the deposited data

How the results depend on the processing

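Of 88 recomputed values, 74 kept their direction and their side of the threshold or stayed near the main value. The difference in the HNF4α share of co-bound peaks rose from 4.56 to 11.3 percentage points under the 75% rule. The difference in the share of HNF4α peaks without HDAC3 or PROX1 went from -5.25 to -7.46 points with the 9 set-aside genes, where it passed the threshold, and to -1.07 points (chi-square p = 0.79) with HNF4α scores above the median. The difference in the HDAC3-only share changed sign, from -2.04 to 0.316 points, in windows reaching 10 kb upstream (chi-square p = 0.89). With HNF4α scores above the median, 3 pairs of subfamilies differed in HNF4α share in place of 0, or 1 with scores equal to the median kept, a setting added after seeing the data, and with peaks closer than 1 kb merged, 5 pairs differed in density in place of 10. Members with a co-bound peak numbered 41 in place of 58 with 10 kb upstream, and 49 with each peak given to the nearest TSS. Members with a PROX1-only peak numbered 18 in place of 33 with 10 kb upstream, and those with an HDAC3-only peak 14 in place of 9 with 100 kb upstream. For these gene counts under other settings, the share of all genes was not computed. Leaving out 1 large subfamily at a time gave differences of 2.23 to 6.32 points for the HNF4α share, 2.37 to 3.92 for the co-bound share, -2.37 to -1.53 for the HDAC3-only share and -6.22 to -4.07 for HNF4α peaks alone. In the central 100 bp of peaks, motif shares were 6.96% for the HNF4α core (3.93 to 12, beside 4.58% of the other co-bound peaks, which lies within that interval), 15.8% for C/EBP (beside 18.1%), 0.633% for the dioxin response element (beside 0.885%) and 0 for the direct repeats with 1, 2 or 4 bases between (beside 0.644, 0.257 and 0.166%). With 1 mismatch allowed, the HNF4α core was at 51.3%, a setting added after seeing the data. Shorter windows hold fewer peaks and fewer bases by construction. Otherwise the cause was not tested. No paired analysis was possible because the lists pool the replicates of each factor, which also leaves no replicate to leave out.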

Other observations

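Several P450 genes are known to differ between the sexes in mouse liver, and all livers here were male. Of 7 genes known as higher in females (*Cyp2a4*, *Cyp2b9*, *Cyp2b13*, *Cyp3a16*, *Cyp3a41a*, *Cyp3a41b* and *Cyp3a44*, a list written after the values were seen), 3 had a co-bound peak (beside 38.4% of all genes, a share near that of the list). *Cyp3a44* had 2, *Cyp3a16* and *Cyp2b13* had 1 each, and none had one within 1 kb of the TSS. The windows of these 7 genes hold 30.4 to 50.4% of unique 32-base words. Of 3 genes known as higher in males, *Cyp2d9* had 7 co-bound peaks and an HDAC3-only peak on its TSS, with 74.6% of unique words. *Cyp4a12a* and *Cyp4a12b* had 0 co-bound peaks, both with 46.6% of unique words. The sexes could not be compared.

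The 9 P450 genes that the rule sets aside all had a co-bound and a triply bound peak (beside 38.4 and 31.1% of all genes), and 7 had a co-bound peak within 1 kb of the TSS (beside 5.05%). Their median was 5 co-bound peaks, with the highest at *Cyp8b1*, the sterol hydroxylase of bile acid synthesis (10), and *Cyp2e1*, the ethanol-inducible P450 (9). Some of their peaks also lie in windows of members, such as those of *Cyp4a31*, *Cyp1a1* and *Cyp2t4*.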
